A study of Mus musculus with 4 samples.

Results

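The genes examined were 10 mouse miRNA genes that are often used as references for small RNA measurements or that lie within genes most cells use. They were taken by name (Mir103-1, Mir103-2, Mir107, Mir191, Mir425, Mir423, Mir186, Mir361, Mir185 and Mir320), and each had a row among the 643 miRNA genes and 2976 rows of the table. The material was Tbx18-expressing stroma from around the wolffian duct of CD1 mouse embryos at E10.5, with the genotype Tbx18-Cre;CAG-tdTomato. In such embryos Cre made under the Tbx18 promoter switches on the tdTomato reporter for good, so flow sorting for red cells collects Tbx18-expressing cells together with cells that descend from them. There were 4 small RNA libraries and 1 group, so levels and their evenness between libraries can be described, and no condition was compared with another. Whether the libraries represent separate embryos, litters or pools is not in the labels, and the spread given here may be technical.

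A miRNA is cut from a hairpin precursor by Drosha in the nucleus and Dicer in the cytoplasm, and the mature strand then guides an Argonaute protein to target mRNAs. Pairing runs mainly through the seed, bases 2 to 8 of the mature strand. A miRNA serves as a reference when its share of the miRNA pool changes little between samples, and many such miRNAs sit in introns of genes used by most cells, from which they are released as the host RNA is processed.

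Mature sequences are shown because they decide which of these genes share a seed and which can be told apart by short reads. All are from RefSeq on GRCm38.p6, written 5′ to 3′ with the seed in capitals, and 9 of the 10 genes had a matching hairpin there. The first set is that of the miR-103/miR-107 family, whose members differ by few bases.
miR-103-3p (Mir103-1 and Mir103-2): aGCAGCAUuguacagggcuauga
miR-107-3p (Mir107): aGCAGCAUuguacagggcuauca
miR-103-1-5p (Mir103-1): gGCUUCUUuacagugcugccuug
miR-103-2-5p (Mir103-2): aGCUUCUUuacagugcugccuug
Strands of the other genes follow, for which RefSeq held a sequence.
miR-191-5p: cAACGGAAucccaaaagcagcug
miR-425-5p: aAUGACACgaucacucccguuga
miR-423-5p: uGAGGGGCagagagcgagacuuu
miR-423-3p: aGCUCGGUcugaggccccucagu
miR-186-5p: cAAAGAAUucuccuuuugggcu
miR-361-5p: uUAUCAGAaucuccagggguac
miR-185-3p: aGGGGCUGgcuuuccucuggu

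Among the mature strands RefSeq held for 9 of the 10 genes, those of Mir103-1, Mir103-2 and Mir107 had a common seed, GCAGCAU on the 3p arm and GCUUCUU on the 5p arm. No seed was examined for Mir320 or for the 5p strand of Mir185. Counting positions from 1 at the 5′ end, with the miR-103-3p base first, miR-103-3p and miR-107-3p differed by G22C alone. The 5p strands of the Mir103 copies differed by G1A, with the Mir103-1 base first. The hairpins of these copies and of Mir107 are shown to mark where they are alike and where they differ, with the 3p strand in capitals.
Mir103-1: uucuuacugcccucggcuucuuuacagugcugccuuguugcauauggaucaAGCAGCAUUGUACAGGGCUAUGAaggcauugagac
Mir103-2: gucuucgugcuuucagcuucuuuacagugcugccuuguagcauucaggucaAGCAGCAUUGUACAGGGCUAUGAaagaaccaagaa
Mir107: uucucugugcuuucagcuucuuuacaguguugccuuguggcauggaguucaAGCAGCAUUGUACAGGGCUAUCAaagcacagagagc
The hairpins of Mir103-1 and Mir103-2 differed by 17 edits and shared a run of 27 bases that holds the whole 3p strand. A read of that strand fits both copies, so the split of reads between them is uncertain.

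In the GENCODE vM21 annotation of the same build, 7 of the 10 hairpins lay in an intron of a protein-coding gene on the same strand. Mir103-1 (chr11:35782396-35782481, plus strand), Mir103-2 (chr2:131288052-131288137, plus strand) and Mir107 (chr19:34820687-34820773, minus strand) lay in Pank3, Pank2 and Pank1, which encode pantothenate kinases, the first enzymes of coenzyme A synthesis. Mir423 (chr11:77078064-77078172, minus strand) lay in Nsrp1, which encodes a splicing regulator of nuclear speckles, and Mir186 (chr3:157544279-157544349, plus strand) in Zranb2, another splicing factor gene. Mir361 (chrX:113074824-113074893, minus strand) lay in Chm, which encodes the Rab escort protein lost in choroideremia. Mir185 (chr16:18327401-18327465, minus strand) lay in Tango2. Mir191 (chr9:108568319-108568392) and Mir425 (chr9:108568777-108568861), both on the plus strand and 384 bases apart, overlapped an exon of the long noncoding RNA gene 4833445I07Rik. Mir320 (chr14:70443510-70443591, plus strand), whose hairpin is known to be made without Drosha, overlapped no other annotated gene. No other row of the table overlapped any of the 10.

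Levels are in TPM, a read count corrected for gene length and for the size of the library, and each miRNA gene is a row for the precursor that does not separate the arms. The miRNA reads recovered from the values numbered between 146255, in library 4, and 1087240, in library 2. The summed TPM of miRNA genes was 42494, 65478, 61707 and 16399 in libraries 1 to 4, so any miRNA level in TPM carries the low total of library 4. All rows of the table together came to 4.94%, 7.22%, 7.11% and 2.33% of 1000000 TPM, so most of each library lay outside them. Less miRNA in library 4 and more of the RNA outside these rows cannot be told apart. As a check of the label, markers of mesenchyme and smooth muscle summed to 331 to 2373 TPM with 4 of 6 detected and Mir214 and Mir199a-2 at 0, and epithelial markers to 43.5 to 157 TPM with 5 of 6 detected. Endothelial Mir126a lay between 251 and 528 TPM, erythroid markers summed to 0.878 to 11.9 TPM with Mir486 at 0, and white blood cell markers to 3.61 to 9.19 TPM with Mir223 at 0. Neural markers summed to 37.3 to 3081 TPM, highest in library 3 and mostly Mir9-3, with Mir124a-1 at 0. For a gene with copies, such as Mir199a-2, a listed 0 may not be absence, since the treatment of reads with several matches is not known. The part of these markers in the values below was not tested, and fewer cells of a type and less RNA per cell cannot be told apart.

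All 10 reference miRNAs were detected at 1 TPM or more in every library, as were 33.1% of the 643 miRNA genes. At 10 TPM or more in every library there were 6 of the 10, against 17.6% of miRNA genes. Their mean levels ran from 222 TPM for Mir423 to 7.55 TPM for Mir185, and by mean level they ranked 44th to 183rd among the 643 miRNA genes. Their sum was 766, 1099, 964 and 286 TPM in libraries 1 to 4, a mean of 779 ± 356 TPM (SD, n = 4). As a share of the miRNA total the same sum was 1.80%, 1.68%, 1.56% and 1.74%, or 1.70% ± 0.103 (SD, n = 4), a coefficient of variation of 6.09%. The sum thus followed the miRNA total closely, while the members that make it up did not all do so.

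Mir423, the highest, was listed at 175, 321, 264 and 129 TPM in libraries 1 to 4 (222 ± 86.8, SD, n = 4). It was high in libraries 2 and 3 and had the smallest ratio of highest to lowest library among the 10, at 2.50. Behind these values lie 4875, 7200, 5523 and 1512 reads, the deepest counts of the 10 in libraries 1 to 4.

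Mir191 was listed at 221, 269, 223 and 56.7 TPM (193 ± 93.3, SD, n = 4), even in libraries 1 to 3 and low in library 4. Its neighbour Mir425 was listed at 15.6, 36.3, 33.0 and 7.31 TPM (23.1 ± 13.9, SD, n = 4), with library 1 well below libraries 2 and 3. The lowest level of Mir191, in library 4, lay above the highest level of Mir425, in library 2.

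Mir320 was listed at 180, 149, 118 and 42.9 TPM (123 ± 58.8, SD, n = 4), and unlike the other 9 it was highest in library 1. Mir361 was listed at 49.0, 86.0, 70.8 and 14.8 TPM (55.1 ± 30.9, SD, n = 4). Mir186 was listed at 18.7, 46.2, 67.8 and 10.2 TPM (35.7 ± 26.3, SD, n = 4), highest in library 3. Its coefficient of variation in TPM, 73.8%, was the largest of the 10, while by the SD of log2(TPM + 1) Mir107 was the least even at 1.43, against 1.19 for Mir186.

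Mir103-1 was listed at 66.7, 128, 129 and 17.9 TPM (85.3 ± 53.5, SD, n = 4), and Mir103-2 at 23.2, 34.3, 27.4 and 3.88 TPM (22.2 ± 13.1, SD, n = 4). Mir107 was listed at 10.9, 19.2, 17.6 and 1.39 TPM (12.3 ± 8.10, SD, n = 4). These 3 paralogs had the largest ratios of highest to lowest library among the 10, at 7.19, 8.84 and 13.8. Mir185, the lowest of all, was listed at 6.26, 9.21, 12.6 and 2.14 TPM (7.55 ± 4.44, SD, n = 4). Library 4 held the lowest TPM of every one of the 10, with the highest in library 2 for 6 of them, in library 3 for 3 and in library 1 for Mir320.

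**Figure D1:**
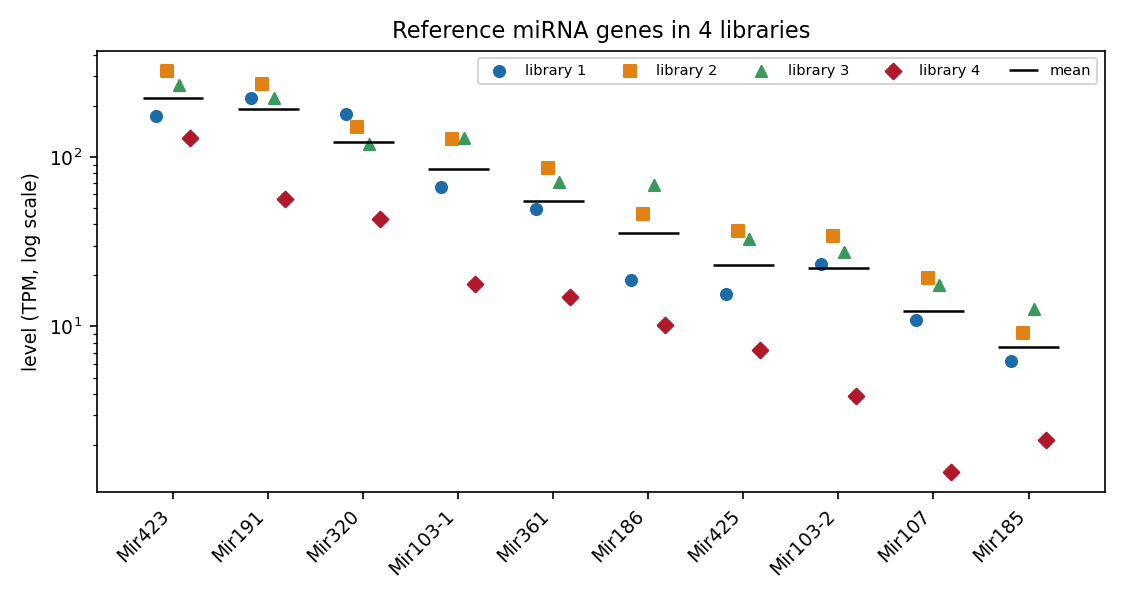
Level in TPM (log axis) of the 10 reference miRNA genes, with a point for each of the 4 libraries and a bar for the mean over libraries. Every gene is lowest in library 4, and the means run from 222 TPM for Mir423 to 7.55 TPM for Mir185.

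Not every step in this order of levels was larger than the spread between libraries. Ratios were taken within each library from shares of the miRNA total. Mir423 lay above Mir191 by 0.34 ± 0.63 log2 units, Mir320 above Mir103-1 by 0.70 ± 0.76, Mir425 above Mir103-2 by 0.17 ± 0.61 and Mir107 above Mir185 by 0.43 ± 0.74 (SD, n = 4), each in 3 of 4 libraries. For these 4 neighbouring pairs the order was not set apart from the spread. The other 5 neighbouring pairs kept their order in 4 of 4 libraries, from 0.53 ± 0.35 log2 units between Mir186 and Mir425 to 1.01 ± 0.36 between Mir103-2 and Mir107 (SD, n = 4).

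Within the miRNA pool the picture of evenness changed. Each value was divided by the miRNA total of its library and expressed in parts per 1000000 (ppm), and the SD over libraries of log2(ppm + 1) was taken as the measure of evenness. The median of this SD over the 10 genes was 0.42, against 0.63 over the 273 miRNA genes with a mean of at least 1 TPM, and 9 of the 10 lay below that median. Over genes with a mean of at least 10 TPM it was 0.43 for 9 members and 0.56 for 170 miRNA genes, with 7 of the 9 below. With that filter and values scaled to every row of the table, the medians were 0.51 for the members and 0.55 for miRNA genes, with 5 of the 9 below. Without library 4 the medians were 0.24 for the 10 members and 0.51 for miRNA genes of at least 1 TPM. Taken on TPM instead, the order turned, with a median SD of log2(TPM + 1) of 1.07 for the members against 0.94 for the 273 miRNA genes. Without library 4 it turned back, at 0.43 for the members against 0.55. By the coefficient of variation in TPM over all 4 libraries the members and miRNA genes lay close together. Its median was 58.8% for the members and 60.3% for the 273 miRNA genes. Over genes with a mean of at least 10 TPM it was 58.77% for 9 members and 58.84% for 170 miRNA genes. On the TPM scale the median shift of library 4 from each gene's own mean was -1.46 log2 units for the members and -1.22 for the 170 miRNA genes of at least 10 TPM, and on shares it was -0.23 and 0.06. These are descriptions of 4 libraries, and no test was made of them.

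**Figure D2:**
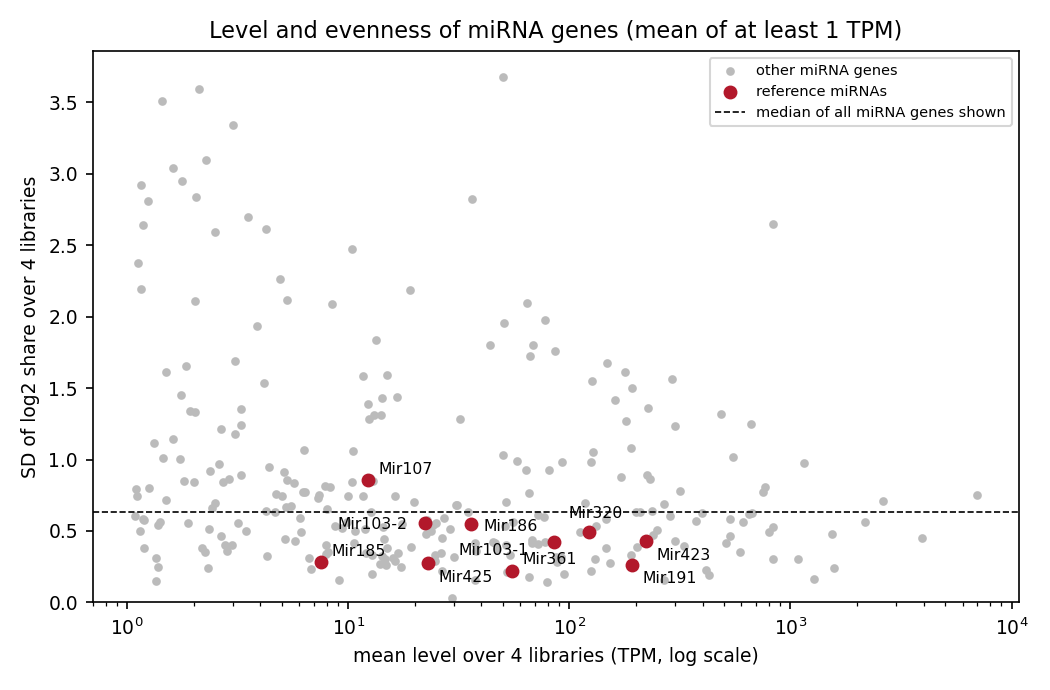
SD over 4 libraries of log2(ppm of the miRNA total + 1) against mean TPM (log axis), for the 273 miRNA genes averaging at least 1 TPM. The 10 reference miRNAs are in red and the dashed line is the median of all genes shown. Mir107 is the only reference miRNA above the line at 0.63, and Mir361 is the lowest at 0.22.

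On shares of the miRNA total Mir361 was the most even member, with 1153, 1313, 1147 and 905 ppm of the miRNA total in libraries 1 to 4 and an SD of 0.22 log2 units. It was 14th among the 170 miRNA genes of at least 10 TPM when these are ordered from the most even. Mir191 followed with 5202, 4115, 3617 and 3455 ppm and an SD of 0.26 (19th), and Mir425 with 367, 555, 534 and 446 ppm and an SD of 0.27 (21st). Mir185 had 147, 141, 204 and 131 ppm and an SD of 0.28. It is just below the level filter, and its 15 reads in library 4 alone carry a counting error of 25.8%. These 4 genes lay well below the pool's median SD of 0.63. Which member came first depended on the scaling. Scaled by the median of ratios to each gene's mean, Mir191 had the smallest SD at 0.22, ahead of Mir361 at 0.28. Scaled to every row of the table, Mir423 had the smallest at 0.29, and Mir361 was behind Mir425 and Mir191 at 0.39.

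Mir103-1 had 1569, 1951, 2086 and 1092 ppm (SD of 0.42 log2 units), and Mir423 had 4116, 4907, 4283 and 7846 ppm (SD of 0.43). Mir423 alone among the 10 had its highest share in library 4, the library with the lowest miRNA total. Mir320 had 4234, 2280, 1917 and 2614 ppm (SD of 0.49), with library 1 apart from the others. Mir186 had 439, 705, 1099 and 621 ppm (SD of 0.55), so that libraries 1 and 3 lay at its ends.

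Mir107 was the least even of the 10 under each of the 4 scalings tried, followed by Mir103-2 under 3 of them and by Mir186 with the median of ratios. Mir103-2 had 546, 524, 444 and 237 ppm (SD of 0.56), and Mir107 had 256, 293, 286 and 84.5 ppm (SD of 0.86, 122nd of 170). Both were close in libraries 1 to 3 and low in library 4. Counted in reads, Mir107 had 13 of 146255 miRNA reads in library 4, or 88.9 ppm with an exact 95% binomial interval of 47.3 to 152. In libraries 1 to 3 it had 242, 343 and 294 reads, and the lowest bound of their intervals was 241 ppm, so the intervals did not meet. For Mir103-2 the interval in library 4 was 172 to 341 ppm from 36 reads, below the lowest bound of the other libraries at 420.5. Of the other members, all but Mir425 and Mir185 also had a library whose interval met no other. For Mir191 it was library 1, at 4594 to 4882 ppm, against an upper bound of 3887 in library 2. Intervals that do not meet thus do not single out Mir107 and Mir103-2. Such intervals cover counting error only, since PCR copies of a molecule are not independent. They also leave out the uncertain split of 3p reads between Mir107 and the Mir103 copies.

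**Figure D3:**
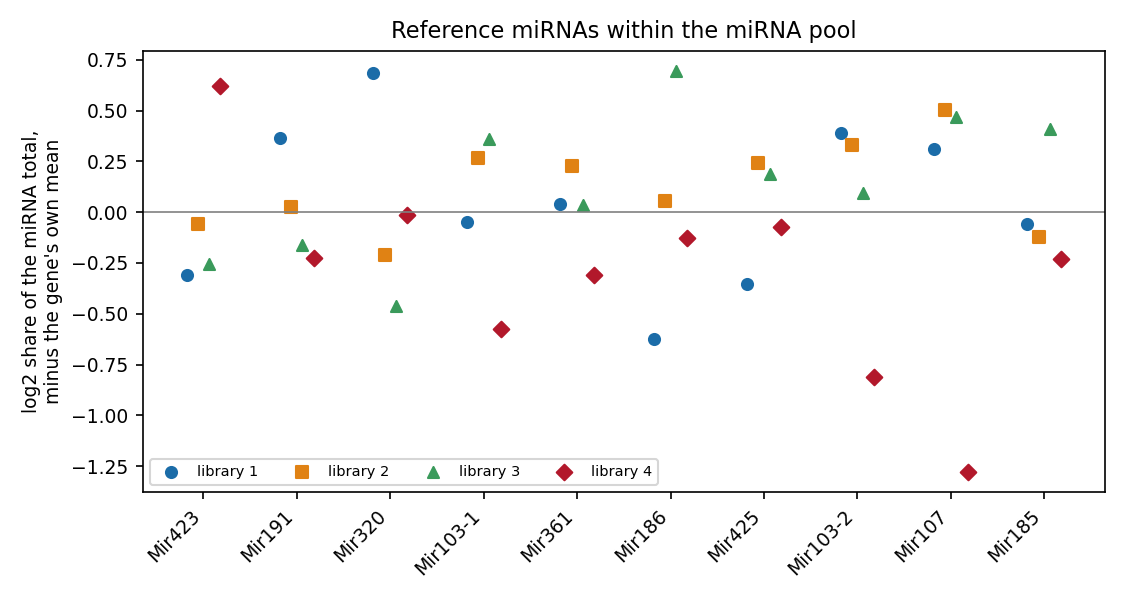
Share of each reference miRNA in the miRNA total, as log2(ppm + 1) minus the gene's own mean over 4 libraries, with a point per library. Library 4 is high for Mir423 and low for Mir103-1, Mir103-2 and Mir107, library 1 is high for Mir320, and Mir186 runs from library 1 at the bottom to library 3 at the top.

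The SD of a member depended on which library was left out. With 4 values, leaving out the value farthest from the mean never raises the SD. Because the library named below differs from gene to gene, the lower SDs are descriptions only. Without library 4 the SD of the log2 share was 0.13 for Mir423, 0.10 for Mir107, 0.16 for Mir103-2, 0.21 for Mir103-1 and 0.11 for Mir361, against 0.43, 0.86, 0.56, 0.42 and 0.22 with it. The same step left Mir320 at 0.60 and Mir186 at 0.66, above the median of 0.49 over 174 miRNA genes of at least 10 TPM. Without library 1 the SD was 0.22 for Mir320, 0.13 for Mir191 and 0.17 for Mir425. Without library 3 it was 0.35 for Mir186 and 0.09 for Mir185. Library 4 was the shallowest and also differed in makeup, with miRNA genes at 70.3% of the table's summed TPM against 86.0%, 90.7% and 86.8% in libraries 1 to 3. Mesenchyme and smooth muscle markers took 4.46%, 3.62%, 2.34% and 2.02% of the miRNA total in libraries 1 to 4, and endothelial Mir126a took 0.659%, 0.666%, 0.856% and 1.53%. In TPM the epithelial, endothelial, erythroid, white blood cell and neural markers were each highest in library 3. Mir186, Mir103-1 and Mir185 were also highest there, though Mir103-1 at 129 TPM was close to its 128 TPM in library 2. As shares, the neural markers took 0.824%, 0.0570%, 4.99% and 0.597% and were highest in library 3, while epithelial markers took 0.174%, 0.0707%, 0.255% and 0.265%. Erythroid markers took 0.00912%, 0.00134%, 0.0192% and 0.00550%, highest in library 3. White blood cell markers took 0.0133%, 0.00561%, 0.0149% and 0.0220%, highest in library 4. The part of depth, makeup and markers in these patterns was not tested.

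The evenness of references can also be measured on their ratios to each other, which do not depend on any total. Pairs of other miRNA genes were not measured, so no background stands beside these values. Over the 45 pairs the SD of the log2 ratio had a median of 0.56, with a range of 0.25 to 1.27. The most even pairs were Mir103-1 with Mir361 and Mir191 with Mir361, both at 0.25. The least even was Mir423 with Mir107, whose log2 ratio was 4.00, 4.06 and 3.90 in libraries 1 to 3 and 6.52 in library 4. Without library 4 its SD fell to 0.08, against 1.27 with all libraries. Mir320 with Mir186 followed at 1.02, at 3.27, 1.69, 0.80 and 2.07 in libraries 1 to 4, and it remained uneven without library 4 at 1.25, while without library 1 it was 0.65. Averaged over its 9 partners, the SD of a member's log2 ratio was smallest for Mir361 at 0.43, followed by Mir103-1 at 0.47 and Mir185 at 0.48. It was largest for Mir107 at 0.78, Mir423 at 0.76 and Mir320 at 0.72. Without library 4 the median over the 45 pairs was 0.37.

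**Figure D4:**
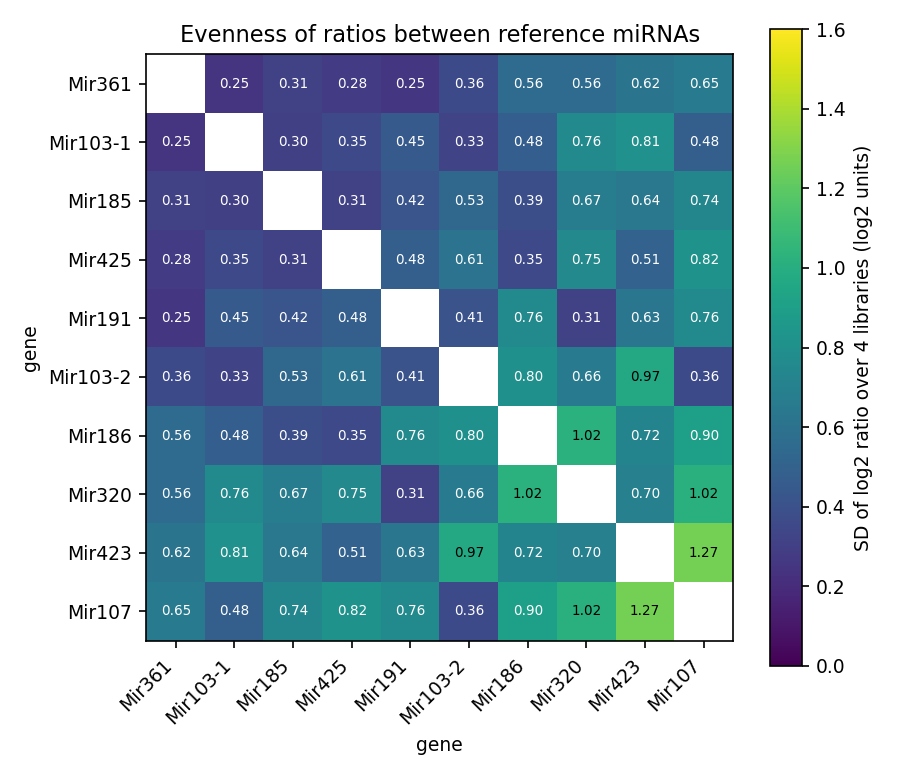
SD over 4 libraries of the log2 ratio of shares between each pair of reference miRNAs, with genes ordered from the smallest to the largest mean SD over partners. The lowest values are those of Mir361 with Mir103-1 and with Mir191, at 0.25 each, while Mir361 with Mir107 is at 0.65, and the pair of Mir423 with Mir107 is the highest at 1.27.

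The paralogs in pantothenate kinase genes summed to 101, 181, 174 and 23.2 TPM, or 120 ± 73.9 TPM (SD, n = 4). Mir103-1 held 66.2%, 70.5%, 74.1% and 77.3% of this sum in libraries 1 to 4, Mir103-2 held 23.0%, 18.9%, 15.8% and 16.8%, and Mir107 held 10.8%, 10.6%, 10.1% and 5.98%. Mir103-1 was thus the highest of the 3 in every library, subject to the uncertain split of reads of miR-103-3p. A like limit holds for any ratio to Mir107, because shortened 3p reads fit both. With copies summed, Mir103 lay above Mir107 by 3.07 ± 0.14 log2 units (SD, n = 4) on log2(TPM + 1), higher in 4 of 4 libraries. This small spread rests on the pseudocount, because Mir107 was at 1.39 TPM in library 4. On shares, a scale chosen for this ratio after the data were seen, the ratio was 3.04, 3.08 and 3.14 in libraries 1 to 3 and 3.96 in library 4, or 3.30 ± 0.44 (SD, n = 4). Without library 4 it was 3.09 with an SD of 0.05. Flipping the signs of the 4 log2 ratios in every combination, an exact two-sided permutation test, gave p = 0.125, which is the smallest that 4 libraries allow, so the test could not pass 0.05.

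The hairpins of Mir191 and Mir425 lie on the same strand close together, and their ratio asks how evenly neighbouring hairpins are represented. Mir191 exceeded Mir425 by 3.03 ± 0.48 log2 units (SD, n = 4) on log2(TPM + 1), or 8.16-fold, in 4 of 4 libraries. The log2 ratio was 3.74 in library 1 and 2.86, 2.72 and 2.79 in libraries 2 to 4, so library 1 stood apart while the others lay close together. Without library 1 the mean was 2.79, and the SD of the ratio of shares was 0.10 in place of 0.48. The same exact two-sided permutation test gave p = 0.125, and the Benjamini-Hochberg adjusted p over both ratios was 0.125.

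A second list of miRNAs that have been used as references held 18 genes, all with a row. Of these, 14 were detected in every library, and Mir24-1 and Mir24-2 were listed at 0 in all of them. How reads that match several genes were treated is not known, so values of genes with copies are uncertain. A listed 0 may not be absence, and Mir26a-1 was listed at a mean of 0.495 TPM beside its copy Mir26a-2. Mir26a-2 at 1575 ± 925 TPM, Mir25 at 837 ± 504 TPM and Mir151 at 428 ± 241 TPM (SD, n = 4) were its highest members, each above Mir423 in mean level. The list took 7.59%, 8.69%, 7.84% and 6.66% of the miRNA total in libraries 1 to 4, a coefficient of variation of 10.8%, against 6.09% for the 10 genes above. Both coefficients are for sums, which the highest genes dominate. The geometric mean of the 10 genes was 940.9, 999.7, 1007.8 and 742.1 ppm of the miRNA total in libraries 1 to 4. For the second list the median SD of the log2 share over 15 genes of at least 1 TPM was 0.43, close to the 0.42 of the 10 genes. No test of that difference was made.

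Among 161 other miRNA genes with a mean of at least 10 TPM, likeness to the summed level of the 10 was measured as the SD over 4 libraries of the log2 ratio to that sum. Mir196a-1 kept the smallest SD at 0.09, then Mir494 at 0.10 and Mir148a at 0.14, against a median of 0.54. Mir148a was also above the sum of the 10 in level, by a mean of 0.73 log2 units. These values rest on 4 points and on log2(TPM + 1), which narrows the spread of low genes.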

How the data were processed

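Libraries were made with the NEBNext Small RNA Library kit from sorted cells and read as single 75 bp reads, per the labels' protocols. The authors deposited TPM values with a row per Entrez gene. Per the submitters' processing notes the genome was mm10 (GRCm38), and limma is named in a role not stated. Aligner, counter, annotation and the treatment of reads with several matches were not given in the sources used here. By gene ID, 2541 of 2976 rows matched RefSeq genes of GRCm38.p6. Multiplying TPM by gene length gave whole numbers of reads (tolerance 0.01) for 100% of nonzero miRNA values in each library, and these served for depth and alternatives, with no count model. Length scaling raises short hairpins and ligation favours some miRNAs, so levels of different genes are relative.

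The members and lists were chosen with earlier results of these data known. All 10 members are named, with the 3 highest genes of other lists and the 3 genes closest to the member sum. Pseudocounts were 1 TPM, or 1 ppm for shares. Scripts were tested on simulated data. Alternatives covered pseudocount, filters, scaling, length, copies and each library left out. Analyses ran in Python 3.11.15 with numpy 2.4.6, pandas 2.3.3, matplotlib 3.10.9 and scipy 1.17.1.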

Additional observations from a re-analysis of the deposited data

Results flagged for a closer look

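Libraries far from the others were sought with Dixon's test at the 95% level in 34 sets of 4 values, and 2 stood out. The sets were each member's TPM, ppm and log2(ppm + 1), the summed TPM, its share of the miRNA total and the 2 tested ratios. The log2 ratio of Mir191 to Mir425 was 3.74 in library 1, against 2.72 to 2.86 in libraries 2 to 4. The log2(ppm + 1) of Mir107 was 6.42 in library 4, where it had 84.5 ppm, against 256 to 293 ppm in libraries 1 to 3. The log2 sets were added after the data were seen, and Mir107 did not pass on the linear scale. Chance alone flags about 1 in 20 such sets. The cause was not tested.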

How the results depend on the processing

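Of 50 recomputed summary values, 47 kept their direction or stayed within the spread between libraries. The 3 that moved were the members detected, 6 of 10 at 10 TPM or more, and both medians of evenness without library 4. All 40 recomputed mean levels of single members with a library left out also stayed within the spread, but could not do otherwise. Leaving out a library always moves a mean over libraries by less than the SD it was held against. The same holds for the summed level with a library left out. Nor could the ratios change direction with a library left out or another pseudocount, since each was above 0 in every library. The members detected could not change with a library left out or at any value above 0. Removing the filter of 1 TPM changed no median, since every member averaged more than that. With each library left out in turn, the median SD of the log2 level ran from 0.43 to 1.28 and that of the log2 share from 0.24 to 0.49. The spread for these medians was a jackknife standard error. The ratios of Mir191 to Mir425 and of Mir103 to Mir107 stayed above 0 under every alternative run, at 2.54 to 3.13 and 2.22 to 3.30, lowest with a pseudocount of 10 TPM. No paired analysis was possible because there was 1 group. Depth limits Mir107 and Mir185 most, with 13 and 15 reads in library 4. The cause of the library 4 differences was not tested.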

Other observations

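Of 15 other small RNAs or their host genes that have served as references, 3 had a row matched by symbol. The Y RNA Rny1 was listed at 817, 1016, 1525 and 1588 TPM in libraries 1 to 4 and Rny3 at 204, 115, 195 and 236 TPM, both highest in library 4, where all 10 reference miRNAs were lowest. Gas5, a host of small nucleolar RNAs, was listed at 5079, 4958, 7082 and 4245 TPM. In TPM their SDs of the log2 level were 0.46, 0.45 and 0.31, all below the 0.59 of Mir423, the most even of the 10 on that scale. This order holds for TPM only. Set against the miRNA total, the sum of these 3 came to 14.4%, 9.30%, 14.3% and 37.0% in libraries 1 to 4. The sum of the 10 reference miRNAs lay between 1.56% and 1.80% of that total.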
